A study of Mus musculus with 14 samples.

Results

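Igf2, which encodes insulin-like growth factor 2, and 9 further imprinted genes with roles in growth (H19, Igf2r, Dlk1, Peg3, Mest, Cdkn1c, Grb10, Plagl1 and Ndn) were examined in mouse fibroblasts without Ptdsr. Members were chosen by the gene symbol that the platform annotation pairs with a probe, and a probe needed a ratio on at least 10 of the 14 arrays. This gave 6 of the 10 genes, out of 9930 named genes on the arrays, through 9 of 20355 probes: 3 probes of Igf2r, 2 of Dlk1 and 1 each of Igf2, Peg3, Cdkn1c and Grb10. A second Grb10 probe had ratios on 8 arrays and fell below the minimum. No probe in the annotation used here carried the symbol H19, Mest, Plagl1 or Ndn, so these 4 genes were not analysed here.

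Each array compared RNA of Ptdsr-/- fibroblasts, homozygous for the knockout of the gene now called Jmjd6 (first described as a phosphatidylserine receptor), with RNA of wild-type fibroblasts in the other dye. The knockout was labelled with Cy5 on 7 arrays (replicates 1, 3, 4, 7, 8, 9 and 13) and with Cy3 on 7 (replicates 2, 5, 6, 10, 11, 12 and 14). The design text speaks of 2 cultures, but the labels do not say which array holds which culture, nor the embryonic or adult origin, age, sex or strain of the cells, so the p-values below measure the spread between arrays, part of which may be technical. The labelling protocol mentions a reference pool of control animals, whereas the channel labels name wild-type fibroblasts. The latter were followed, and the spread of the wild type itself was not measured.

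Imprinted genes are expressed from the allele of a single parent, a choice that is set by DNA methylation at CpG dinucleotides in control regions and kept through cell division. Many of them act on growth in opposite ways: paternally expressed genes such as Igf2 mostly promote growth of the embryo and placenta, and maternally expressed genes such as Igf2r, Cdkn1c and Grb10 restrain it. The Igf2 protein signals through the receptors encoded by Igf1r and Insr, while the protein encoded by Igf2r binds it and carries it to lysosomes for breakdown. Igf2 is high in fetal tissues and falls after birth in most of them in the mouse.

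The promoter windows of the measured genes show where CpG dinucleotides, the letters that can be methylated, sit before the starts of these transcripts. Whether a window lies in a control region of the imprint was not examined. RefSeq windows (build GRCm38.p6) were found for 5 of the 6 genes, in 9 windows, and the 250 bases before each start were read. They are printed 5′ to 3′ on the strand of the gene, in lower case with each CpG in capitals. For Igf2, which has 4 windows, the 2 nearest to the coding part are shown, and for the other genes the first listed window.
Igf2, start 3, chr7:142658805-142659054, minus strand: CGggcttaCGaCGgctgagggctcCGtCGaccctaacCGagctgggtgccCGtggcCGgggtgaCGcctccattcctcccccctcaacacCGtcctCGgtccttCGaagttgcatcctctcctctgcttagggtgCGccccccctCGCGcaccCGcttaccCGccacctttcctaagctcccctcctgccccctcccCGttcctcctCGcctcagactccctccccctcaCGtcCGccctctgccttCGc
Igf2, start 4, chr7:142657497-142657746, minus strand: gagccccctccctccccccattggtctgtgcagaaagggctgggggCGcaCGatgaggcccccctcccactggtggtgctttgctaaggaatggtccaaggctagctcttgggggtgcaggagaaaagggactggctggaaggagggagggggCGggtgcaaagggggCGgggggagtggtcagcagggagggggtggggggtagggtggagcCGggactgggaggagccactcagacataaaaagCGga
Igf2r, chr17:12769707-12769956, minus strand: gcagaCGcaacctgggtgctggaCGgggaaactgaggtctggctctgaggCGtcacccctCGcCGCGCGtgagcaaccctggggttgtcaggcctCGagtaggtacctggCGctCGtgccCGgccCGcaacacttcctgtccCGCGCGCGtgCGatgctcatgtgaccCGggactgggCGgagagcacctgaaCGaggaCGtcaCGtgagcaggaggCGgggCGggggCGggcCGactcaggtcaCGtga
Dlk1, chr12:109452573-109452822, plus strand: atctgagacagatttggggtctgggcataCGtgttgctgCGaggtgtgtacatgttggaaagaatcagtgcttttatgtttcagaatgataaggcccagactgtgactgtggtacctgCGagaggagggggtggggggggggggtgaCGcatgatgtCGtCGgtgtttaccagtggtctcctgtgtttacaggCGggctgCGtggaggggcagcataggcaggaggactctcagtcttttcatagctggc
Peg3, chr7:6730420-6730669, minus strand: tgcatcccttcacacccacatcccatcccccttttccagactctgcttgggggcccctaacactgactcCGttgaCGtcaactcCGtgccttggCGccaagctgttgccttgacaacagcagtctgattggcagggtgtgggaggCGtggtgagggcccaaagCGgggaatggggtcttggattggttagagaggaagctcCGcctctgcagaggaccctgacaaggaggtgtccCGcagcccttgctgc
Grb10, start 1, chr11:12037421-12037670, minus strand: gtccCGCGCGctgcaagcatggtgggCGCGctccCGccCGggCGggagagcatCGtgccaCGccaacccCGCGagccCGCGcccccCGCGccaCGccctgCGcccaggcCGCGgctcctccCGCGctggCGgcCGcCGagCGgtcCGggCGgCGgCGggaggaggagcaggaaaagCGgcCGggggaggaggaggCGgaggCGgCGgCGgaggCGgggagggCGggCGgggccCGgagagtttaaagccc

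The windows differed widely in CpG content. The window of Grb10 start 1 held 40 CpG dinucleotides, more than 98.7% of 32851 such windows, against 8 at Grb10 start 2, which is not printed. The Igf2r window held 27, more than 91.4% of all windows. The windows of Igf2 starts 3 and 4 held 22 and 6, against 1 and 10 at the starts not printed, while Dlk1 and Peg3 held 8 each. The median over all windows was 6. The GC box GGGCGG, searched on both strands, was found at Igf2 starts 3 and 4 and in the printed Igf2r and Grb10 windows, and 32.7% of all windows held it. The motif TATAAA, searched on both strands, was found in none of the 9 windows and in 12.4% of all windows. The motif ATAAAA was searched in the same way. At Igf2 start 4 it lay on the printed strand and began 12 bases before the start. In the Dlk1 window it lay only on the opposite strand. It was held by 17.0% of all windows. The arrays measured neither methylation nor the start that was used, so none of the ratios below can be assigned to a window.

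Ratios are given on the log2 scale as knockout over wild type, after centring each array on its median. This direction is likely but not stated: each array held a repeated extreme that was read as a code for a division by zero, and its sign was plus wherever the knockout carried Cy5 (7 arrays) and minus on the 7 others, which fits dye swaps that had been turned before deposit if the scanner ratio was Cy5 over Cy3. With the opposite scanner ratio every sign given here would change. Had the swapped arrays not been turned before deposit, the Igf2 mean given below as 0.67 would be 0.11. Between 13165 and 19615 probes per array had a usable ratio, fewest on replicates 1 and 2. The arrays give ratios and no levels, so levels cannot be set against each other between genes, and fibroblast identity cannot be checked. The marker ratios below only compare the knockout with the wild type.

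None of the 22 tested probes of 11 fibroblast marker genes was called (limma, adjusted p of at least 0.895), also none at an unadjusted p below 0.05. Those of smallest p were Thy1 at -0.54 ± 1.42 (SD, n = 14), Pdgfrb at 0.25 ± 0.55 (SD, n = 13) and Col1a2 at -0.21 ± 0.51 (SD, n = 14). Of 8 probes of 7 macrophage marker genes, 6 lay below 0 on average, and 1 was called lower by limma, against 0.0324% of the 18503 tested probes, while 3 were lower at an unadjusted p below 0.05, against 2.76%. Both probes of Lyz2, which encodes lysozyme, were low on nearly every array: the called one stood at -1.47 ± 0.80 (SD, n = 12, limma, adjusted p = 0.0454) and the other at -1.55 ± 1.03 (SD, n = 14, limma, adjusted p = 0.0595), below 0 on 13 of 14 arrays. The call held in 3 of 14 fits that each left out 1 array, with adjusted p from 0.0333 to 0.166 by limma, and with the Cy3 arrays turned the mean of that probe was 0.29. Cd68, a lysosomal glycoprotein gene, stood at -0.51 ± 0.55 (SD, n = 13, limma, adjusted p = 0.895). None of the 7 muscle, 2 adipocyte and 7 epithelial marker probes tested was called, with 0, 1 and 1 of them lower at an unadjusted p below 0.05. The muscle genes of smallest p were Myog (-0.29 ± 0.38, SD, n = 13), Des (0.72 ± 1.27, SD, n = 10) and Myl1 (-0.43 ± 1.07, SD, n = 14). The adipocyte genes Adipoq and Fabp4 averaged -0.57 ± 1.13 (SD, n = 13) and -0.0033 ± 0.99 (SD, n = 14), and the epithelial genes of smallest p were Krt14 (-0.48 ± 0.44, SD, n = 14), Krt8 (-0.25 ± 0.57, SD, n = 11) and Epcam (0.27 ± 0.87, SD, n = 14). The part of these markers in the ratios of the imprinted genes was not tested.

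Igf2 was chosen because its ratio stood high in this contrast, so its ratios are given as a description, with no test. On the arrays with a Cy5-labelled knockout the log2 ratio was 0.58, 0.23, -0.43, 1.97, 1.75, 0.90 and 0.49 on replicates 1, 3, 4, 7, 8, 9 and 13. On those with a Cy3-labelled knockout it was 0.17, 0.06, 0.34, 1.21, 1.30, 0.63 and 0.20 on replicates 2, 5, 6, 10, 11, 12 and 14. Igf2 therefore lay above 0 on 13 of the 14 arrays, in both orientations of the dyes, and replicate 4 was the exception. The mean was 0.67 ± 0.68 (SD, n = 14), a 1.59-fold higher ratio in the knockout, and the median was 0.54. Among 18503 tested probes, 308 had a higher mean. Had the dye swaps not been turned before deposit, Igf2 would lie above 0 on 6 of 14 arrays and 5889 probes would have a higher mean. Of the 6134 probes with a ratio on every array, 0.245% lay above 0 on at least 13 of them, and nothing is read from this share, since the contrast chose the gene.

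The size of the Igf2 ratio differed between runs of replicate numbers. On replicates 7 to 12 it lay between 0.63 and 1.97, with a mean of 1.29 ± 0.50 (SD, n = 6). On replicates 1 to 6 it lay between -0.43 and 0.58, with a mean of 0.16 ± 0.34 (SD, n = 6). The ranges did not overlap, and replicates 13 and 14, at 0.49 and 0.20, lay within the lower range. The same full separation upward was found for 0.713% of 18224 probes with at least 3 ratios in each range, and among the 9 member probes for Igf2 alone. The labels do not name these ranges as batches or cultures, and they were set apart after the values of the arrays had been seen, so no test is given.

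**Figure D1:**
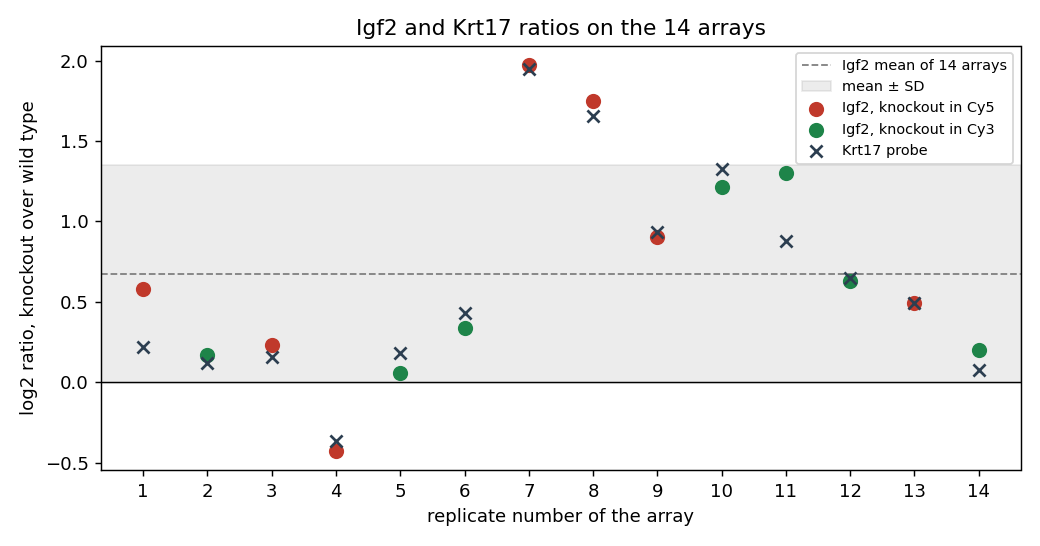
Log2 ratio of knockout over wild type (vertical axis) on each of the 14 arrays (horizontal axis, replicate number) for the Igf2 probe, as dots coloured by the dye of the knockout, and for the Krt17 probe, as crosses. The dashed line and band are the Igf2 mean and SD (0.67 ± 0.68), replicates 7 to 12 carry the highest Igf2 dots, and the crosses follow the dots closely on most arrays.

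The gene whose ratios were most like those of Igf2 was Krt17, which encodes a keratin of epithelial appendages. Likeness was the Pearson correlation over the 14 arrays after the mean of each dye orientation had been removed, among 4493 probes of other named genes with a ratio on every array. Krt17 reached r = 0.97 (Spearman rho 0.91), against a median of 0.03 over these probes, and the arrays share cultures, so no p is given. Its log2 ratio was 1.95, 1.66, 0.93, 1.33, 0.88 and 0.65 on replicates 7 to 12, and it differed from that of Igf2 by less than 0.15 on 12 of 14 arrays. The mean absolute difference between both probes was 0.11 log2 units, the smallest of 6133 probes compared with Igf2, and the next was 0.27. Of 642 pairs of probes that share a gene symbol and were measured on every array, 1 pair was closer than this, and the median pair differed by 0.64. The comparison of distances was chosen after the likeness had been seen. The probe numbers of Krt17 and Igf2 lie 10 apart, Krt17 had a single probe, and the probe sequences were not used here, so whether both probes measured separate transcripts was not tested.

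The other probes most like Igf2 belonged to genes of varied function. Aqp6, an intracellular aquaporin, followed at r = 0.96, but its mean was 0.07 ± 0.60 (SD, n = 14) and it lay above 0 on 6 of 14 arrays. Then came Rps3a1 (a ribosomal protein, r = 0.91), Hyi (hydroxypyruvate isomerase, r = 0.91), Msmo1 (a sterol synthesis enzyme, r = 0.90), Hbp1 (a transcription factor, r = 0.88) and Eln (elastin, r = 0.88). Timm10 (r = 0.87), Herpud1 (r = 0.86) and Gyg (r = 0.86) completed the first 10. Eln had the widest range among these 10, from -1.26 to 1.93, and stood at -0.59 on average on replicates 1 to 6 and at 1.38 on replicates 7 to 12. Of the 10, Krt17, Hyi, Eln and Herpud1 had ranges that did not overlap between replicates 1 to 6 and 7 to 12. Such a separation upward was found for 0.713% of 18224 probes with at least 3 ratios in each range. The 10 were picked by likeness to Igf2, whose own ranges did not overlap, so nothing is read from this count. Of the member genes with a ratio on every array, Dlk1 ranked 55th at r = 0.76, Grb10 57th at r = 0.76 and Igf2r 232nd at r = 0.58.

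Igf2r, the receptor that removes Igf2 from the cell surface, had 3 probes that differed greatly in steadiness. Probe 2902 gave 0.13, 0.24, 0.00, 0.64, 0.62, 0.26 and 0.23 with the knockout in Cy5 (replicates 1, 3, 4, 7, 8, 9 and 13). With the knockout in Cy3 it gave 0.23, 0.31, 0.14, 0.14, 0.15, -0.03 and 0.38 (replicates 2, 5, 6, 10, 11, 12 and 14). It was thus above 0 on 12 of 14 arrays and within 0.03 of 0 on the other 2. Its mean was 0.25 ± 0.20 (SD, n = 14), a 1.19-fold higher ratio, and only 0.0649% of tested probes had a smaller SD over arrays. Replicates 1 to 6 averaged 0.17 and replicates 7 to 12 averaged 0.30 on this probe, and these ranges overlapped.

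The other Igf2r probes did not repeat this steadiness. Probe 4281 ran from -1.37 to 1.80 with a median of 0.28 and a mean of 0.28 ± 1.003 (SD, n = 11), and lay above 0 on 7 arrays. Probe 7873 ran from -3.32 to 4.07 with a median of 0.33 and a mean of 0.67 ± 2.17 (SD, n = 12), and 98.8% of tested probes had a smaller SD. Probes 2902 and 7873 had the same sign on 7 of the 12 arrays that measured both, and probes 2902 and 4281 on 6 of 11. Dim spots tend to give ratios of small whole numbers (here both up to 10, matched within 0.0011), which made up 1 of 14 ratios of probe 2902, 5 of 11 of probe 4281 and 3 of 12 of probe 7873, against 13.4% to 31.4% of all ratios of an array. The means and medians of all 3 Igf2r probes lay above 0.

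Grb10 encodes an adaptor that binds activated insulin and Igf1 receptors and dampens their signal. Its probe 4353 gave -0.27, -0.07, -0.51, 1.26, 1.09, 0.76 and 0.74 with the knockout in Cy5 (replicates 1, 3, 4, 7, 8, 9 and 13). With the knockout in Cy3 it gave 0.40, -0.03, 0.05, 0.55, -0.03, -0.04 and -0.14 (replicates 2, 5, 6, 10, 11, 12 and 14). It was above 0 on 7 of 14 arrays, and its highest values lay on replicates 7, 8 and 9, all of 1 dye orientation. The mean was -0.07 on replicates 1 to 6 and 0.60 on replicates 7 to 12, with overlapping ranges. Grb10 averaged 0.27 ± 0.54 (SD, n = 14), against a median of 0.01. The second Grb10 probe, on 8 arrays, ran from -3.22 to 1.36 and had the sign of probe 4353 on 3 of them.

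Cdkn1c encodes p57, an inhibitor of cyclin-dependent kinases that stops the cell cycle. It ran from -1.55 on replicate 7 to 1.26 on replicate 4, with a median of 0.02, and was above 0 on 7 of 13 arrays. The mean was -0.10 ± 0.71 (SD, n = 13), so Cdkn1c showed no side. Cdkn1c averaged 0.23 on replicates 1 to 6 and -0.13 on replicates 7 to 12, with overlapping ranges. Replicate 7, where Igf2 was highest, held its lowest ratio, and replicate 4, where Igf2 was lowest, held its highest. Other arrays did not follow this. On replicate 11 Igf2 stood at 1.30 and Cdkn1c at 0.70. On replicates 13 and 14 Igf2 stood at 0.49 and 0.20 and Cdkn1c at -1.045 and -0.61. A relation between both genes was not tested.

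Dlk1 encodes a membrane protein of preadipocytes and fetal tissues that holds back fat cell formation and, like Igf2, is expressed from the paternal allele. Probe 2590 gave -1.72, -0.98, -1.25, 0.82, 0.44, 0.54 and -0.80 with the knockout in Cy5 (replicates 1, 3, 4, 7, 8, 9 and 13). With the knockout in Cy3 it gave 0.11, -0.59, -0.77, 0.36, -0.09, -0.46 and -0.82 (replicates 2, 5, 6, 10, 11, 12 and 14). It was below 0 on 9 of 14 arrays, with a mean of -0.37 ± 0.75 (SD, n = 14). Its sign turned with the replicate range: the mean was -0.87 on replicates 1 to 6 and 0.27 on replicates 7 to 12, with overlapping ranges. The second Dlk1 probe ran from -1.64 to 2.06 on 10 arrays, with a mean of 0.11 ± 1.02 (SD, n = 10), and agreed in sign with the first on 5 of them. Of its 10 ratios, 6 were ratios of small whole numbers.

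Peg3 encodes a large zinc finger protein linked to maternal care and cell survival, and is paternally expressed. It gave -0.94, 0.18, 0.80, 0.92, 0.81 and 0.88 with the knockout in Cy5 (replicates 1, 3, 7, 8, 9 and 13). The values were -0.22, 1.22, 0.74, 0.42, 0.82 and 0.39 in the other orientation (replicates 5, 6, 10, 11, 12 and 14). Peg3 was above 0 on 10 of 12 arrays, and replicates 1 and 5 were the exceptions. Of its 12 ratios, 4 were ratios of small whole numbers, on replicates 1, 5, 6 and 8. These include both exceptions and the highest value. The mean was 0.50 ± 0.60 (SD, n = 12), a 1.42-fold higher ratio, and 825 of the tested probes had a higher mean. On replicates 7 to 12 its ratios lay closely together, between 0.42 and 0.92, with a mean of 0.75. The mean was 0.06 on the 4 arrays with a ratio among replicates 1 to 6, and the ranges overlapped.

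**Figure D2:**
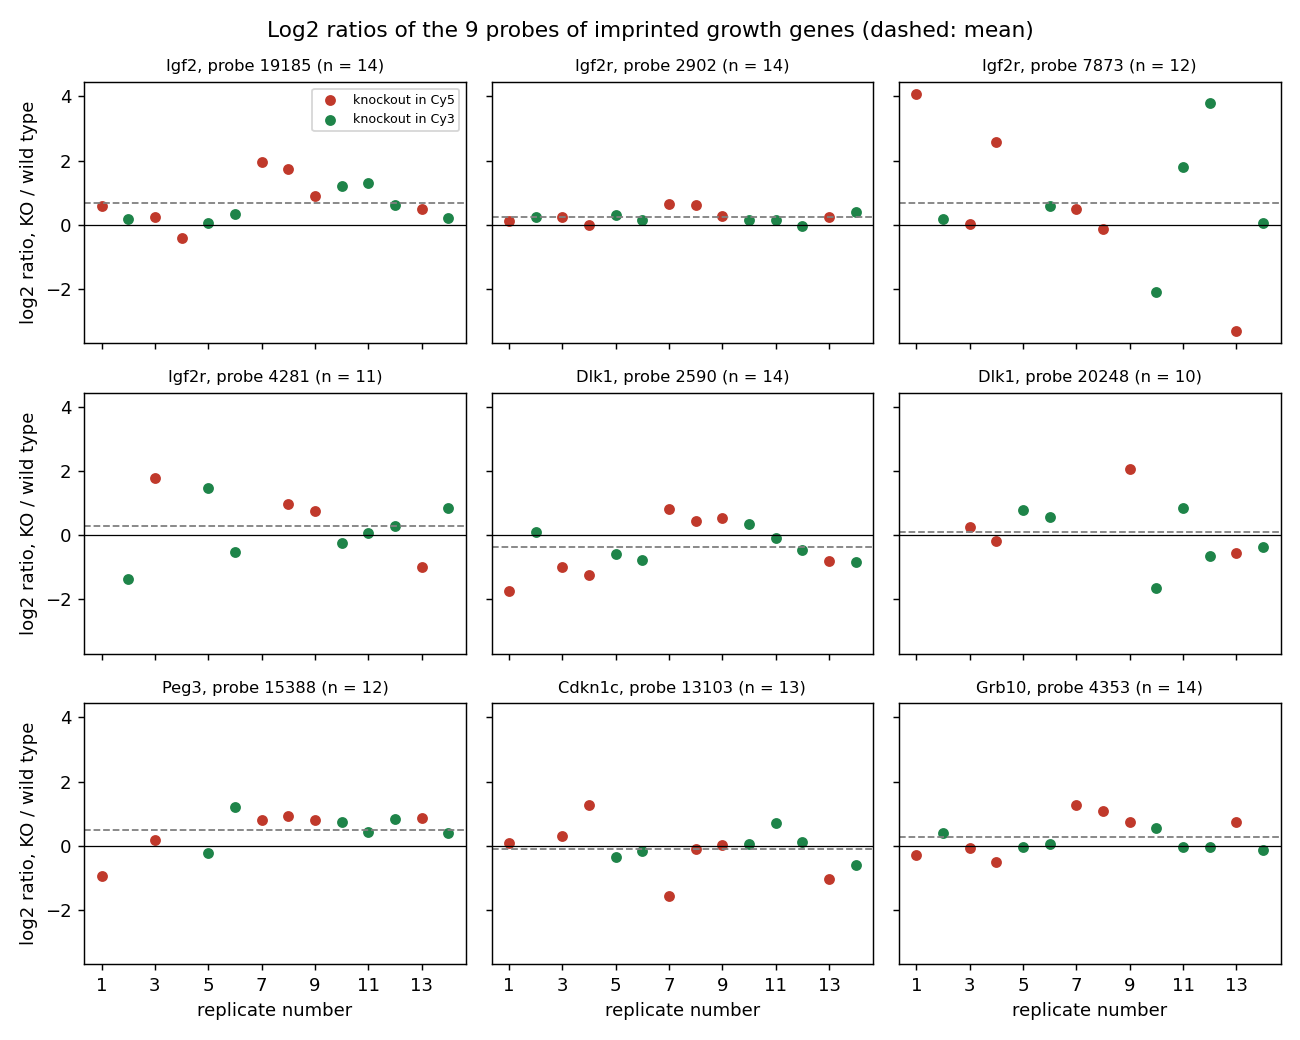
Log2 ratio of knockout over wild type (vertical axis) against the replicate number of the array (horizontal axis) for each of the 9 probes, coloured by the dye of the knockout, with the mean as a dashed line. Igf2r probe 2902 lies in a narrow band around 0.25, Igf2r probe 7873 scatters from -3.32 to 4.07, and Igf2, Dlk1 probe 2590 and Grb10 each have their highest dot on replicate 7.

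Ordered by mean ratio, Igf2 (0.67) and Igf2r probe 7873 (0.67) stood first, followed by Peg3 (0.50), Igf2r probe 4281 (0.28), Grb10 (0.27) and Igf2r probe 2902 (0.25). Dlk1 probe 20248 (0.11), Cdkn1c (-0.10) and Dlk1 probe 2590 (-0.37) came last. The order depended on single arrays: without replicate 1, 12 or 13 the mean of Igf2r probe 7873 was 0.36, 0.38 or 1.03, and without replicate 2, 3 or 5 that of Igf2r probe 4281 was 0.45, 0.13 or 0.16. Dlk1 probe 20248 ranged from -0.10 without replicate 9 to 0.31 without replicate 10, and Cdkn1c from -0.21 without replicate 4 to 0.02 without replicate 7. Each step between neighbours in this order was smaller than the SD of either probe, so neighbours did not differ beyond their spread. Of the 9 probes, 7 had a mean above 0, against 51.0% of all tested probes. The median of the 9 means was 0.27, against 0.0066 over all tested probes. With the Cy3 arrays turned, 5 of the 9 lay above 0, against 49.6% of all tested probes, and the median was 0.06. The paternally expressed genes had 3 of 4 probes above 0 with a median of 0.31, and the maternally expressed genes 4 of 5 with a median of 0.27, and 3 of these 4 were probes of Igf2r. By limma, none of the 9 passed an adjusted p of 0.05, against 0.0324% of the 18503 tested probes, all of them lower in the knockout. Nothing is read from that count, nor from the means above 0 and the medians of the members, as this contrast was used for the choice.

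The dye orientation was not used to choose the genes and was tested for each member in the same limma fit. None of the 9 probes differed between the orientations at an adjusted p of 0.05, none at an unadjusted p of 0.05, against 0.0054% and 7.66% of all tested probes. Igf2 averaged 0.79 ± 0.84 (SD, n = 7) on arrays that carried the knockout in Cy5 and 0.56 ± 0.51 (SD, n = 7) on those in Cy3, a difference of 0.23 ± 0.38 (SE, limma, adjusted p = 0.910). Igf2r probe 2902 differed by 0.11 ± 0.21 (SE, limma, adjusted p = 0.922). Grb10 stood at 0.43 in Cy5 and 0.11 in Cy3, a difference of 0.32 ± 0.31 (SE, limma, adjusted p = 0.831), and had the smallest adjusted p of the 9. Peg3 had nearly equal means of 0.44 and 0.56, and Dlk1 probe 2590 of -0.42 and -0.32. The standard errors, from 0.21 to 1.16, show that differences of such size between dyes could not be resolved.

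**Figure D3:**
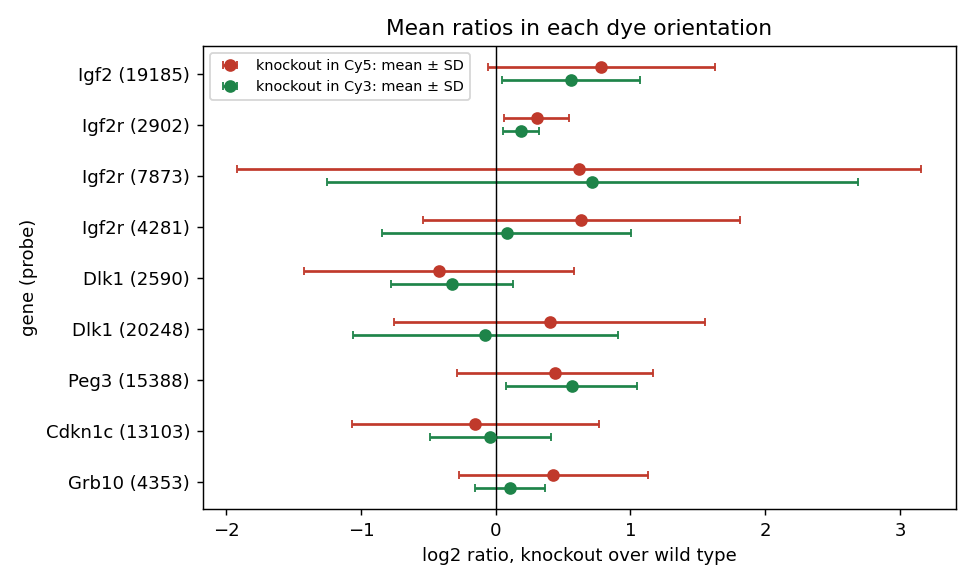
Mean log2 ratio of knockout over wild type (horizontal axis) for each of the 9 probes (vertical axis), in the arrays with the knockout in Cy5 and in Cy3, with bars of 1 SD. The Cy3 mean lies within the Cy5 bar for all 9 probes, and both means lie above 0 for Igf2, Peg3, Grb10 and the 3 Igf2r probes.

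Other imprinted genes did not share a direction. Of 59 further imprinted genes listed, 31 had a tested probe, and of their 39 probes 0 rose and 0 fell (limma, adjusted p of at least 0.895), where an unadjusted p below 0.05 was reached by 1 upward and 1 downward, against 2.30% higher and 2.76% lower of all tested probes. Their means lay above 0 for 21 probes and below 0 for 18, with a median of 0.02 against 0.0066 over all tested probes. Slc38a4, a paternally expressed amino acid transporter gene, stood at 0.59 ± 0.52 (SD, n = 11), above 0 on 10 of 11 arrays. Dcn, which encodes the matrix proteoglycan decorin and is imprinted in the placenta, stood at -0.65 ± 0.72 (SD, n = 14), with -1.32 on replicates 1 to 6 and 0.04 on replicates 7 to 12. Snrpn, a splicing protein gene of the cluster that also holds Ndn, stood at -0.39 ± 0.83 (SD, n = 12). Ppp1r9a, an actin-binding protein gene, stood at 0.29 ± 0.60 (SD, n = 11), and the transporter genes Slc22a18 and Slc22a2 at -0.42 ± 0.84 (SD, n = 14) and -0.47 ± 0.80 (SD, n = 12). None of these 6 passed the test (limma, adjusted p = 0.895 each).

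Genes next to the members on the chromosome were examined because imprinted genes lie in clusters. For each member, the 3 nearest genes with a tested probe on either side were taken from the RefSeq gene order (34 genes with 53 probes in all). None of these probes was called (limma), against 0.0324% of all tested probes, and an unadjusted p below 0.05 was reached by 1 upward and 0 downward, against 2.30% and 2.76% of all tested probes. The median of the means was 0.08, against 0.0066 over all tested probes. The nearest genes to Igf2 were Mrpl23, Tnnt3 and Lsp1 on the side of H19 and Ascl2, Tspan32 and Cd81 on the other. Their 9 probes had means from -0.63 to 0.69, with a median of 0.07. The imprinted genes Ascl2 and Cd81 stood at 0.03 ± 0.57 (SD, n = 14) and -0.12 ± 0.42 (SD, n = 14). The 7 probes next to Cdkn1c, in the same imprinted region of chromosome 7, had means from -0.42 to 0.24, with a median of -0.02. The lowest was Slc22a18, given above. Phlda2, a placental growth restrainer, stood at 0.08 ± 1.72 (SD, n = 13). Nap1l4 stood at 0.02 ± 0.27 (SD, n = 14) on its steadier probe and at -0.27 ± 1.58 (SD, n = 12) on the other. The 10 probes next to Igf2r had means from -0.47 (Slc22a2) to 0.62, with a median of 0.10. Some neighbours, such as Slc22a18 and Slc22a2, are also among the other imprinted genes above. The neighbour with the unadjusted p below 0.05 was Cobl, an actin nucleator next to Grb10, at 0.90 ± 1.31 (SD, n = 11, limma, adjusted p = 0.895). The neighbours given with values here were picked after their values were seen.

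The signalling pathway of Igf2 was described from 30 listed ligands, receptors, binding proteins and signal carriers, of which 20 had a tested probe. Of their 31 probes 0 rose and 0 fell (limma, adjusted p of at least 0.895), where an unadjusted p below 0.05 was reached by 2 upward and 1 downward, against 2.30% and 2.76% of all tested probes. A mean above 0 was found for 10 of the 31, against 51.0% of all tested probes, and for 18 with the Cy3 arrays turned. Igf1r, the receptor through which Igf2 signals, was measured by 4 probes, 3 of them with a mean above 0. Probe 17685 stood at 0.55 ± 0.90 (SD, n = 14), above 0 on 11 arrays, and probe 588 at 0.27 ± 0.36 (SD, n = 14), above 0 on 10. Shc1, an adaptor that links growth factor receptors to Ras, stood at -0.995 ± 1.37 (SD, n = 11) on the probe with the smallest p and at -0.30 ± 1.07 (SD, n = 13) on the other. The second ligand, Igf1, had a mean of -0.05 ± 1.41 (SD, n = 10). The binding protein genes Igfbp1, Igfbp2, Igfbp3, Igfbp4 and Igfbp6 lay between -0.35 and 0.05, each by less than its SD over arrays. Igf1 and the binding protein genes were named after their values were seen.

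The genes that maintain imprints were described from 23 listed methyltransferases, methyl-CpG binders, Polycomb proteins and insulator proteins, of which 14 had a tested probe. Of their 21 probes 0 rose and 0 fell by limma, 0 also at an unadjusted p below 0.05, against 2.30% higher and 2.76% lower of all tested probes. A mean above 0 was found for 16 of the 21, of which 5 were probes of Dnmt3a, against 51.0% of all tested probes, and for 13 with the Cy3 arrays turned. The median was 0.05. Trim28, a corepressor that protects imprints in the early embryo, stood at 0.19 ± 0.29 (SD, n = 14). Ezh2, the Polycomb methyltransferase, stood at 0.22 ± 0.39 (SD, n = 13). Dnmt3a, which sets methylation in germ cells, stood at 0.31 ± 0.86 (SD, n = 14) on the probe with the smallest p, with 0.74 when the knockout was in Cy5 and -0.12 in Cy3.

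**Figure D4:**
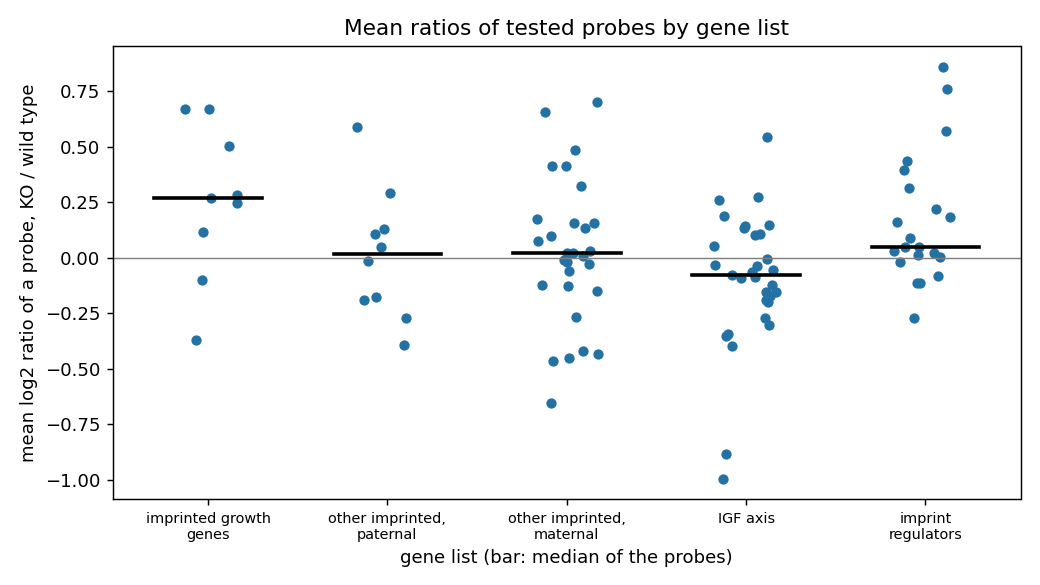
Mean log2 ratio of knockout over wild type (vertical axis) of each tested probe in 5 gene lists (horizontal axis), with the median of each list as a bar. The medians are 0.27 for the 9 probes of imprinted growth genes, which were chosen with Igf2 known to be high, 0.02 for both other imprinted lists, -0.08 for the insulin-like growth factor axis and 0.05 for the imprint regulators.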

How the data were processed

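The deposited table holds a log2 ratio per probe (20355) and array (14, cDNA, in 2 colours). Base 2 was read from the steps between the most frequent values. Labelling of the reverse-transcribed RNA was indirect, per the labels' protocols. How the authors scanned and normalized the arrays: not given in the sources used here. No intensities come with the ratios.

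Values beyond 12 log2 units (91 to 315 per array) were read as codes and set to missing, and array medians were subtracted. Probes with values on 10 arrays, and 4 of each dye orientation, were tested (18503) with limma 3.58.1 in R 4.3.3 (lmFit, eBayes, intercept plus dye term, Benjamini-Hochberg over all tested probes, tested on simulated data). Of the probes, 14030 had 1 gene symbol, 5 several and 6320 none in the annotation used here, which dates from platform records and can be old. Members, lists and rules were chosen with earlier results of these data known. The named genes are all member probes, in each other list the called probes and the 3 of smallest p, and the 10 probes most like Igf2. Neighbouring genes, Igf1 and the binding protein genes were named outside this rule. Alternatives were centring, scaling, coded extremes, array minimum, dye direction, each dye alone, eBayes settings, gene averages, a random block and leaving out arrays.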

Additional observations from a re-analysis of the deposited data

How the results depend on the processing

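Every array holds knockout and wild type together, so each ratio pairs them within the array. No further pairing by culture was possible, because the labels do not say which array holds which culture. Counts of called members, other imprinted genes, axis genes and regulators stayed at 0 under every alternative run, by limma. Over all probes, 6 were called: 1 with Cy3 arrays turned, 0 in either dye orientation alone, 0 with robust and trended eBayes, 11 with values on all 14 arrays, and 4 to 8 without single arrays. The dye term called 1: 6 with Cy3 arrays turned, 0 with equal deviations, the random block of number range and dye, robust eBayes, values on all arrays, or without replicates 1 and 2 together (added after the data were seen), 4 with gene averages, and 0 to 4 without single arrays. Turning the Cy3 arrays exchanges the mean and dye terms of the fit, so its counts of 1 and 6 are the main counts exchanged. Member means moved by less than 1 SD under all alternatives run. Leaving out a single array cannot move a mean by that much, so nothing is read from this. The Igf2 mean ranged from 0.57 to 0.76 without single arrays and kept its sign throughout, but was 0.11 with Cy3 arrays turned, a setting in which Igf2r probe 7873 became -0.05 and Peg3 -0.06. Dlk1 probe 20248 became -0.10 without replicate 9 and -0.08 with Cy3 arrays alone. Cdkn1c became 0.02 without replicate 7 or as a median. Within replicates 1 to 6, Grb10 stood at -0.07 and Cdkn1c at 0.23. Ratios without intensities give no depth per spot. The number of arrays limits the precision, and the design text names only 2 cultures, so the arrays may not be independent.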
